A study of Mus musculus with 22 samples.

Results

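Bisulphite sequencing of whole genomes, from E10.5 embryos and from livers at E14.5 and E18.5, was searched for DNA that goes against the general trend between these tissues. Most of the genome was less methylated in the fetal livers than in the embryos, and the regions described here were the exception, being more methylated in liver. They were chosen by a rule on the wild-type libraries. The autosomes were cut into 1 kb regions, and a region was tested if at least 8 of its CpGs were covered by at least 6 reads in all 12 libraries. Its methylation level was the percentage of reads over those CpGs that carried an unconverted (methylated) cytosine. A tested region was selected if the lowest of the 4 wild-type livers lay at least 10 percentage points above the highest of the wild-type E10.5 embryos. Of 574594 tested regions, 7472 met the rule, and the reverse rule (lowest embryo at least 10 points above the highest liver) took 196946. The wild-type levels that follow are therefore a description of the selection and carry no test.

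The 12 bisulphite libraries comprised 2 wild-type (*Rlf*+/+) and 2 homozygous mutant (*Rlf* MommeD28/MommeD28) samples for each of 3 sources, namely whole embryos at E10.5 and livers at E14.5 or E18.5. MommeD28 is an ENU-induced null allele of *Rlf*, a zinc finger gene found as an epigenetic modifier. All mice were of the FVB background (the Line3 strain of FVB/NJ) and all, wild types included, were homozygous for a multi-copy GFP transgene under the human alpha-globin promoter and HS-40 enhancer. The E10.5 embryos were all male, each E14.5 group held 1 male and 1 female, and the E18.5 livers were all female, so tissue and stage cannot be told apart between embryos and livers, and sex was not balanced between the stages. RNA-seq was available for 3 wild-type and 3 mutant E14.5 livers, 2 males and 1 female of each genotype. H3K4me1 ChIP-seq of E14.5 livers belongs to the same study and was not used here.

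In mammals, methylated cytosine is found mostly at CpG dinucleotides, and most CpGs outside CpG islands are methylated. Enhancers and promoters in use are commonly held at low methylation, and this can differ between cell types, so the regions that differ between tissues often mark regulatory DNA. The fetal liver is the main site of blood formation at mid-gestation and consists largely of erythroid cells with hepatoblasts among them. Towards birth blood formation leaves the liver and cells of the hepatocyte lineage come to dominate it, so the liver stages differ in their cells. In contrast, an E10.5 embryo is a mixture of neural, mesenchymal, muscle, heart, blood and other precursors. In bulk tissue, a change in the share of cells that carry methylation and a change within the cells cannot be told apart.

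The regions with the widest separation are shown by their sequence. The 4 windows printed here come from 4 of the 8 regions with the widest gaps and are shown because they cover dense and sparse CpGs. Each window holds the 200 bases with the most covered CpGs of its region outside untranslated exons, read from NCBIM37 (mm9) on the plus strand, with the covered CpGs in capitals.
*Cyp26c1* upstream, chr19:37759313-37759512: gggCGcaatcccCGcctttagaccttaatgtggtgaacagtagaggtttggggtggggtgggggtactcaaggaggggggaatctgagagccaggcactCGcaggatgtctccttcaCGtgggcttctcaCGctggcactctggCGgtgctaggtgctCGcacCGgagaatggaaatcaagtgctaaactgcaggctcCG
*Zfpm1* coding exon, chr8:124860162-124860361: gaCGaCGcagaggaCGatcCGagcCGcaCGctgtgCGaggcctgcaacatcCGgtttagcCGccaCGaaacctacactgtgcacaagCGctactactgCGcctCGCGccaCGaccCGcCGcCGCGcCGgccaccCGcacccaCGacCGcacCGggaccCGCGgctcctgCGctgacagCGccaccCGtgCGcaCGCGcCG
*Nsf* intron, chr11:103702263-103702462: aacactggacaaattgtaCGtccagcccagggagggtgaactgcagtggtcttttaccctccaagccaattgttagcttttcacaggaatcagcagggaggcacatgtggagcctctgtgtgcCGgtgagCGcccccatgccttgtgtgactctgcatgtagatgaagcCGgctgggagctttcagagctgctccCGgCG
*Tnfaip2* exonic region, chr12:112686041-112686240: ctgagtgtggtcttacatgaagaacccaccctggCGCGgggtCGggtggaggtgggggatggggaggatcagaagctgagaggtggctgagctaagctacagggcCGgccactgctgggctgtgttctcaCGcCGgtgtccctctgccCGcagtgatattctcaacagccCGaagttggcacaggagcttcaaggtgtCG
The *Zfpm1* window held 33 covered CpGs, the *Cyp26c1* and *Tnfaip2* windows 9 each and the *Nsf* window 6. Over the window at *Zfpm1*, which encodes the GATA factor partner FOG-1, wild-type embryos were methylated at 0.749% of reads, wild-type E14.5 livers at 65.5% and wild-type E18.5 livers at 69.1%. In the mutants it was at 0.978%, 63.4% and 49.7%, so the mutant E18.5 livers were the lowest of the liver groups. Over the whole region the mutant E18.5 libraries differed, at 64.6% and 73.3%, with the mutant E14.5 livers at 73.0% and 70.3%. In the sparse *Nsf* window the wild types were at 5.39%, 74.8% and 76.5% and the mutants at 6.06%, 78.1% and 74.4%.

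The widest gap of all was in a region centred 571 bases upstream of the start of *Cyp26c1*, which encodes an enzyme that breaks down retinoic acid (chr19:37759001-37760000, 23 covered CpGs, between genes). Its methylation was 4.59% and 4.84% in the wild-type embryos, 78.9% and 79.9% in the wild-type E14.5 livers, and 81.3% and 77.1% in the wild-type E18.5 livers. In the mutants, which the rule did not use, it was 5.21% and 7.53% in the embryos, 81.1% and 79.5% in the E14.5 livers and 83.0% and 77.6% in the E18.5 livers. All 8 livers thus stood far above all 4 embryos, and each of the 23 CpGs taken alone separated the mutant livers from the mutant embryos. The mutant difference of 73.9 points had an adjusted p of 1.98e-26 (edgeR, below) and of 1.38e-06 with limma.

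The exon of *Zfpm1* (chr8:124860001-124861000, 126 CpGs, coding, with the composition of a CpG island, and also within *Gm20388*) was at 4.64% and 5.22% in wild-type embryos against 73.7% and 76.3% in wild-type E14.5 livers and 78.5% and 83.1% in wild-type E18.5 livers. The mutant values were 4.82% and 5.89%, 73.0% and 70.3%, and 64.6% and 73.3% for the same tissues. An *Nsf* intron (chr11:103702001-103703000, 14 CpGs), within the gene for a membrane fusion ATPase, ran from 4.90% to 9.28% in the 4 embryos and from 72.3% to 79.3% in the 8 livers. Coding exons of *Tbkbp1* (chr11:97000001-97001000) and *Sipa1* (chr19:5654001-5655000), the latter encoding a Rap GTPase activator, held 83 and 89 CpGs. *Tbkbp1* lay between 3.45% and 6.37% in embryos and between 58.9% and 71.5% in livers. *Sipa1* lay between 2.77% and 6.48% in embryos and between 59.5% and 76.0% in livers, and its mutant E18.5 livers stood apart from each other, at 59.5% and 71.9%.

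Exons of *Atxn7l1* (chr12:34030001-34031000) and *Arhgap23* (chr11:97362001-97363000) varied more among the mutant embryos, at 22.2% and 10.2% for the first and 17.1% and 8.38% for the second. The wild-type embryos were at 13.46% and 15.3%, and at 7.26% and 5.28%. The livers were between 75.6% and 81.8% at *Atxn7l1* and between 66.5% and 78.7% at *Arhgap23*. The exonic region of *Tnfaip2* (chr12:112686001-112687000, 22 CpGs), a gene first known as a target of tumour necrosis factor, was at 12.6% and 15.4% in wild-type embryos and at 29.1% and 31.1% in mutant embryos, with 75.7% to 82.2% in the 8 livers. Wild-type embryos and livers are apart at these 8 regions by the choice of the widest gaps. In the mutants the lowest liver also lay above the highest embryo at all 8. The same held for 95.2% of all selected regions and 4.56% of all tested regions. All mutant differences between livers and embryos were called, at 50.6 points for *Tnfaip2*, 56.6 for *Arhgap23* and between 61.7 and 69.7 for *Zfpm1*, *Nsf*, *Tbkbp1*, *Sipa1* and *Atxn7l1*. Adjusted p was no higher than 4.66e-20 with edgeR and 4.74e-06 with limma.

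**Figure D1:**
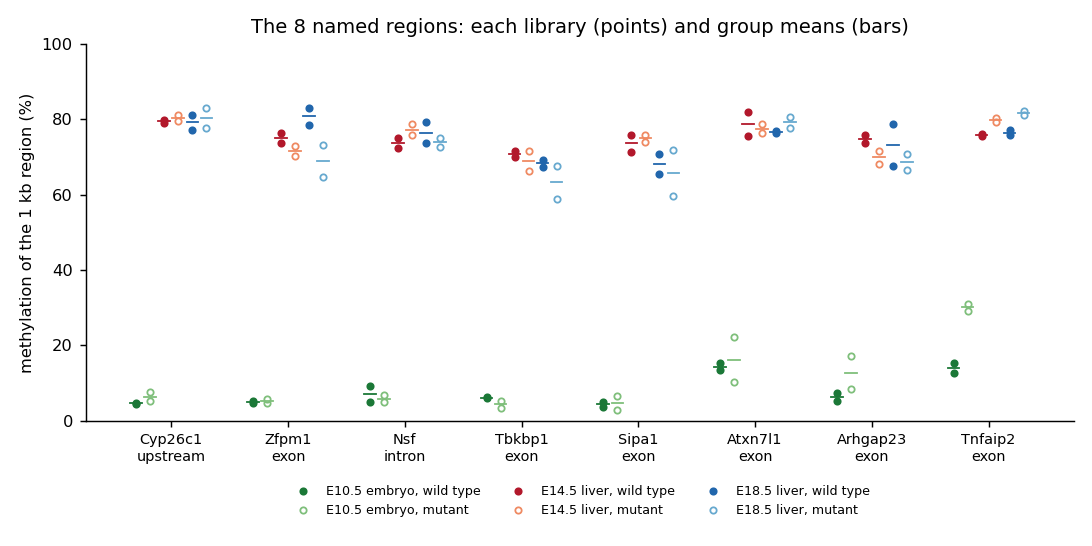
Methylation (%) of the 8 regions with the widest wild-type gap between livers and embryos, by group. Points are single libraries (filled, wild type and open, mutant) and bars are means of 2. The embryo points sit at or below 31.1% and the liver points at or above 58.9%.

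Across all 7472 regions, the median level was 33.8% and 34.9% in the wild-type embryos, 59.3% and 61.0% in the wild-type E14.5 livers and 63.3% and 62.9% in the wild-type E18.5 livers. The medians of all tested regions ran the other way, from 85.0% and 85.2% in wild-type embryos to 64.9% and 67.9% at E14.5 and 71.8% and 72.3% at E18.5. In the wild types the selected regions stood far below all tested regions in embryos and less far below them in livers at both stages, a pattern that the rule favours. Their median wild-type difference (livers minus embryos) was 23.3 points, where that of all tested regions was -13.3 points. The gap itself had a median of 16.7 points. It reached 20 points in 2683 regions, 30 in 882, 40 in 255, 50 in 66 and 60 in 10. The median number of reads per region was 526 to 589 for the livers at E14.5, 295 to 308 for those at E18.5 and 267 to 311 for embryos, so the E14.5 levels had the smallest counting error.

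**Figure D2:**
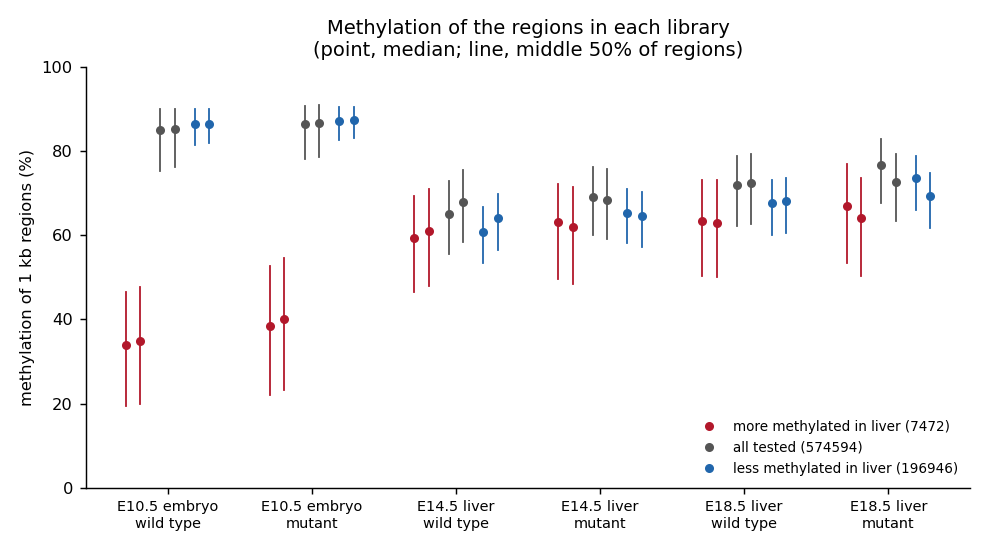
Methylation (%) of 1 kb regions in each of the 12 libraries for the regions more methylated in wild-type liver, all tested regions and the regions less methylated in liver. Points are medians and lines the middle 50% of regions. The selected regions sit at medians of 33.8% to 40.05% in embryos and 59.3% to 66.9% in livers.

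The mean level in wild-type embryos was under 10% in 831 regions (11.1%), 10 to 30% in 2288, 30 to 50% in 2901, 50 to 70% in 1399 and 70% or more in 53. Of all tested regions, 81.4% were in the last class. Of the tested regions with an embryo level of 10 to 30%, 17.98% were among the selected, compared with 2.94% of those under 10%. Liver methylation rose with the starting class, from a median of 30.2% to 49.6%, 64.6%, 76.7% and 88.3%. At the edge of the rule, the region just inside at chr8:124753001-124754000 had 25.9% and 26.5% in the wild-type embryos and 36.5% to 45.8% in the wild-type livers, and that at chr8:27418001-27419000 had 36.6% and 41.8% against 51.8% to 57.4%. Just outside, chr11:115242001-115243000 had 29.9% and 25.4% against 39.9% to 53.8%, and chr19:7203001-7204000 had 54.99% and 44.6% against 64.99% to 75.6%.

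The methylation of single CpGs around the regions showed that the difference was local. Within 500 bases of the centre, the mean was 33.0% in wild-type embryos, 56.9% in wild-type E14.5 livers and 59.7% in wild-type E18.5 livers. Between 1 and 2 kb away the order had turned, with 52.7% in wild-type embryos and 49.0% and 52.3% in the livers, and between 3 and 5 kb it was 62.1%, 53.2% and 56.8%. In the mutants, the centre was at 37.1% in embryos, 58.5% at E14.5 and 61.4% at E18.5, and the outer flank at 64.2%, 54.9% and 59.0%. Hence the embryos had a dip in methylation at these regions in both genotypes, while the livers were slightly higher there than in the flanks. The shape of the wild-type curves follows in part from the choice of the regions, whereas that of the mutant curves was measured in libraries the rule did not use.

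**Figure D3:**
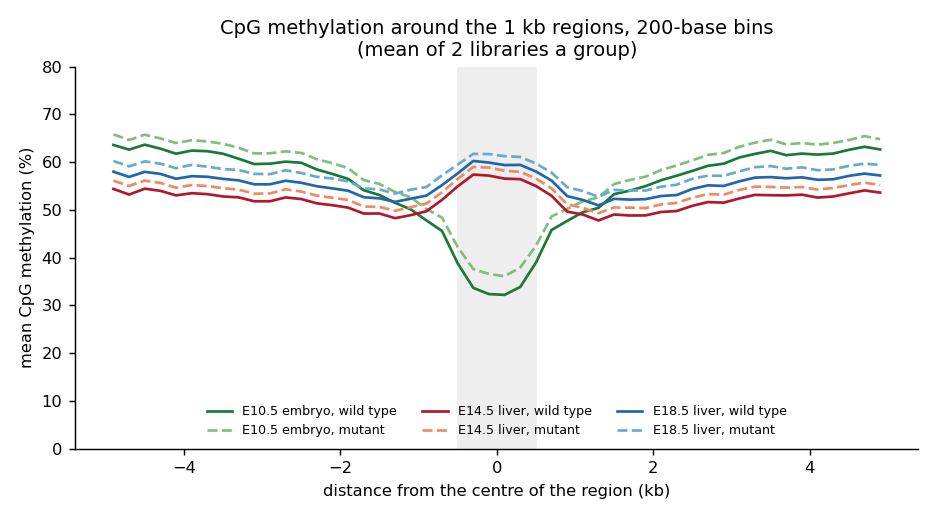
Mean CpG methylation (%) in 200-base bins against distance from the centre of the 7472 regions (kb), 1 line per group (mean of 2 libraries; solid, wild type and dashed, mutant; the region itself is shaded). Both embryo lines dip at the centre, to 33.0% and 37.1% within 500 bases, where the liver lines rise.

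The mutant libraries allowed the tissue difference to be tested apart from the values used for selection. The 4 mutant livers were compared with the 2 mutant embryos in a quasi-likelihood fit (edgeR) to methylated and unmethylated counts of all tested regions, and a call needed a Benjamini-Hochberg adjusted p under 0.05 and a difference of at least 10 points. Of the 7472 regions, 6817 (91.2%) were higher in mutant livers, against 2.1% of all tested regions. By the same criteria 0 were lower (0 also with limma), where 63.0% of all tested regions were lower. At an unadjusted p under 0.05, 0 were lower by either tool. Counts at an unadjusted p, here and below, also need the 10 points and were made for the selected regions only. The median mutant difference was 21.1 points (middle 50%, 15.3 to 28.7), where that of all tested regions was -12.6 points. In 95.2% of the regions the lowest mutant liver lay above the highest mutant embryo, compared with 4.56% of all tested regions. The rule itself, applied to the mutants, took 6288 regions, or 1.09% of those tested. It shared 5113 with the wild-type list, that is 68.4% of the wild-type list and 81.3% of the mutant list.

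The mutant difference followed the size of the wild-type gap. For regions with a gap of 10 to 15 points the median mutant difference was 15.4 points and 81.6% were called. At a gap of 20 to 30 points these were 27.7 points and 99.5%, and all 255 regions with a gap of at least 40 points were called. A call was missing in 655 regions, and 26 regions had a mutant difference at or below 0.

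**Figure D4:**
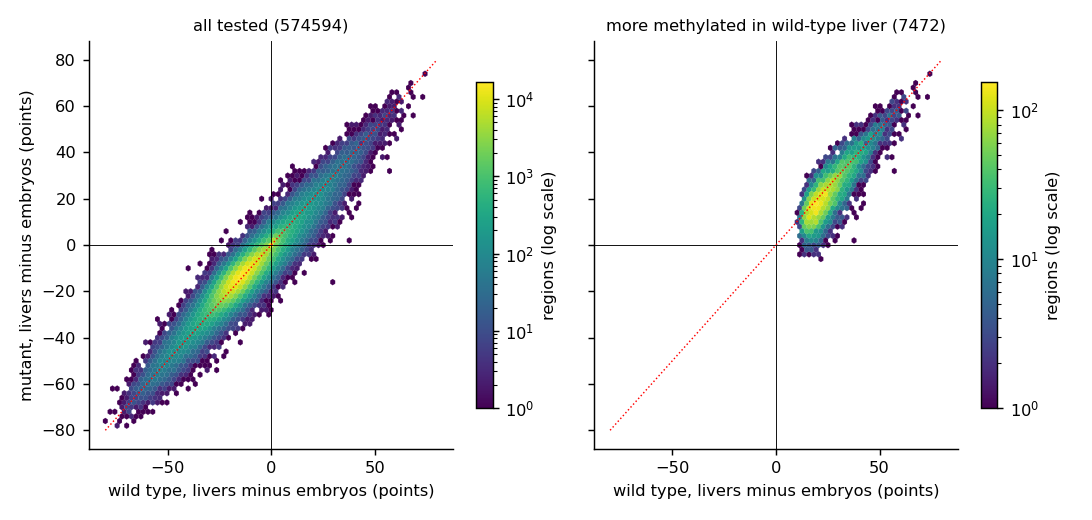
Difference between livers and embryos (percentage points) in mutants against that in wild types, for all tested regions (left) and the 7472 regions more methylated in wild-type liver (right), with the number of regions in each hexagon on a log colour scale and equality as a dotted line. The selected regions have a median of 23.3 points in wild types and 21.1 in mutants.

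By annotation (GENCODE vM1), 3307 regions (44.3%) lay in introns, 2674 (35.8%) between genes, 1188 (15.9%) at exons and 303 (4.06%) at a start site of a protein-coding gene. The shares among all tested regions were 34.0%, 44.1%, 18.1% and 3.82%. Introns were thus the class that was taken most often, at 1.69% of tested intronic regions. Regions that met the composition of a CpG island (70, or 0.937%) were fewer than among all tested (1.997%), whereas regions within 2 kb of such an island (571, or 7.64%) were more frequent (3.76%). Those near an island started lower, at a median of 18.6% in wild-type embryos, than those farther away, at 35.6%. In each of these classes between 90.2% and 94.7% of the regions were called in the mutants. The regions were spread over all autosomes, at 0.944% of tested regions on chromosome 16 to 1.68% on chromosome 11.

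The sequences of the regions differed from the tested regions in base composition and in short motifs, searched on both strands of NCBIM37. Median GC content was 48.9% against 46.9%, and the ratio of observed to expected CpG was 0.287 against 0.264. The E-box CAGCTG, bound by basic helix-loop-helix factors such as those of muscle and neural precursors, was in 54.8% of the regions and 42.6% of all tested. The letters AGGGGGC, a core of the CTCF motif, were in 20.6% against 12.7%, the homeodomain letters TAATTA in 26.8% against 20.6%, and the SOX letters ACAAAG in 64.8% against 58.9%. In contrast, the GATA letters AGATAA, whose factors act in red cells, were in 33.8% against 40.1%, and the RUNX letters TGTGGT in 48.5% against 54.8%. Within regions of 45 to 50% GC, TAATTA was in 29.5% of the 2590 selected and 18.8% of all, CAGCTG in 52.6% and 43.4%, AGATAA in 38.3% and 39.8%, and TGTGGT in 50.5% and 56.8%. There AGGGGGC was in 16.7% and 11.4%, a smaller difference than over all compositions. Within regions of 50 to 55% GC, AGATAA was in 24.9% and 30.2%, so the GATA difference varied with composition. A match is a run of letters and was not tested as a binding site. For the 8 other motifs searched (GGAATG for TEAD, TGACTCA for AP-1, CCACACCC for KLF1, TGTTTAC for forkhead, TTGCNNAA for C/EBP, CAAAGTCCA for HNF4, TATTTATA for MEF2 and GGACAGCG for part of REST), the shares over all compositions differed by less than 4 points. Within a composition they could differ more, as for GGAATG at 55% GC or more, with 46.5% and 38.4%.

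Most regions stood alone, but 1674 (22.4%) touched another, in 761 runs of 2 to 6. The longest run, 6 kb at *Tnfaip2* (chr12:112683001-112689000), had 12.4% and 13.8% in wild-type embryos, 56.8% and 55.5% in wild-type E14.5 livers and 47.9% and 49.1% in wild-type E18.5 livers. Its mutant levels were 21.7% and 21.0% in embryos, then 57.2% and 61.8%, and 48.6% and 50.1%. The 5 kb at *Cyp26c1* (chr19:37758001-37763000), which took in its start site, went from 9.27% and 9.39% in wild-type embryos to 60.6% and 60.5% at E14.5 and 52.7% and 55.9% at E18.5. Over exons of *Jak3* (chr8:74208001-74213000), the kinase of common gamma chain cytokine receptors, the wild-type levels in the same order were 8.03% and 8.53%, 59.3% and 56.1%, and 59.4% and 56.0%. A run in introns of *Bop1* (chr15:76291001-76296000), a ribosome assembly gene, had its nearest region centred 3632 bases from the start of *Scx*, the tendon transcription factor, and went from 24.4% and 25.9% to 63.8% and 66.2%, and 66.5% and 67.03%. Every region of these 4 runs was called in the mutants, as were 91.2% of all selected regions.

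Runs of 5 regions at *Hlx* and *Runx3*, chosen after their values were seen, differed in their course between the liver stages. At *Hlx* (chr1:186550001-186555000), a homeobox gene needed for fetal liver growth, methylation was 2.88% and 2.11% in wild-type embryos, 39.6% and 40.7% at E14.5 and 34.1% and 34.3% at E18.5. At *Runx3* (chr4:134710001-134715000), a Runt family transcription factor, it was 6.51% and 7.13%, 31.3% and 29.8%, and 47.6% and 51.1%. The mutant livers showed the same order at both, with 39.7% and 42.3% against 30.9% and 33.9% at *Hlx*, and 38.4% and 35.1% against 53.3% and 53.5% at *Runx3*. Of their regions, 1 of 5 was called lower at E18.5 than at E14.5 in the mutants at *Hlx*, and 3 of 5 were called higher at *Runx3*, where 0.126% and 5.71% of all tested regions were lower and higher. Calls between the liver stages rested on single libraries, and limma made 0 (given with that comparison).

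The regions were then counted near genes of 12 lists (gene body and 5 kb on either side), which were chosen with earlier results of these data known. Near all protein-coding genes, 5341 of 365326 tested regions were selected, or 1.46%. The counts of regions called in the mutants stand beside 91.2% of all selected regions and 2.1% of all tested regions, and most lists lay near the former. The highest share was at the Hox clusters, which pattern the body axis, at 33 of 286 tested regions (11.5%), and 32 of these were called in the mutants. Their wild-type median was 3.72% in embryos and 33.7% in livers. Other patterning transcription factors had 88 of 2243 (3.92%) and developmental signals and receptors 65 of 2489 (2.61%), with 81 and 61 called. Erythroid genes had 13 of 465 (2.80%), megakaryocyte genes 5 of 208 (2.40%) and mesenchyme and matrix genes 25 of 1097 (2.28%), with 10, 5 and 24 called. Neural genes were at 26 of 1951 (1.33%), endothelial genes at 6 of 591 (1.02%), muscle and heart genes at 8 of 933 (0.857%), hepatoblast genes at 4 of 469 (0.853%), germline genes at 2 of 293 (0.683%) and neutrophil and macrophage genes at 1 of 220 (0.455%). Of these last 6 lists, 20 neural regions and 0 of the neutrophil and macrophage list were called in the mutants, and in the other 4 lists every region was. Neighbouring genes share regions, and a list's regions are not independent of each other.

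**Figure D5:**
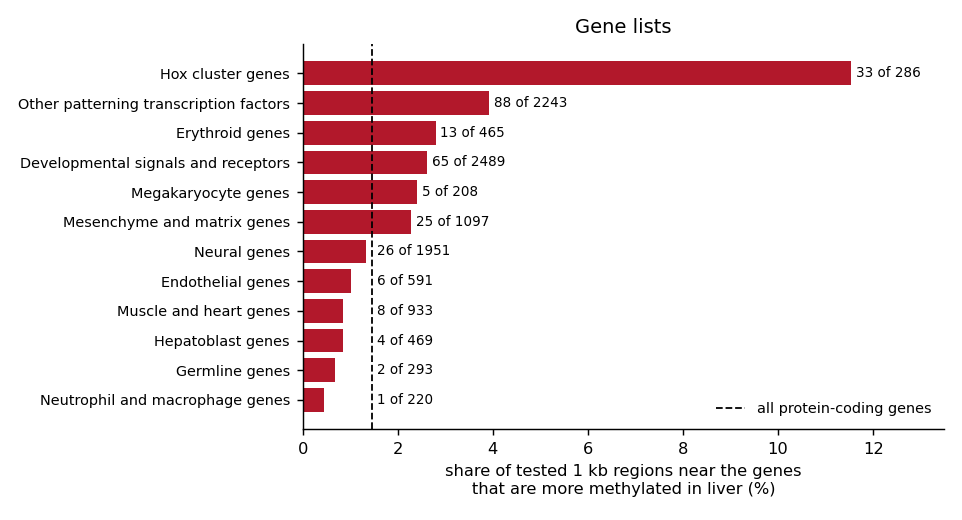
Share (%) of the tested 1 kb regions within 5 kb of the genes of each list that were more methylated in liver, with the counts beside the bars and the share for all protein-coding genes (1.46%) as a dashed line. Hox cluster genes are highest, at 33 of 286.

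Within the Hox clusters the regions fell at 17 of 39 genes, of the HoxA, HoxB and HoxD clusters, and 4 genes had a region at a start site. The one at *Hoxb3* (chr11:96205001-96206000) was at 2.90% and 2.53% in wild-type embryos, 32.1% and 35.03% at E14.5 and 39.5% and 36.2% at E18.5, and a further start site of *Hoxb3* (chr11:96184001-96185000) at 8% and 5.33%, 45.5% and 43.3%, and 36.5% and 45.5%. Start sites of *Hoxb2* (chr11:96212001-96213000) and *Hoxd3* (chr2:74564001-74565000) reached 24.3% to 28.9% and 28.8% to 47.0% in wild-type livers. *Hoxb5* (chr11:96163001-96164000) showed the smallest rise, from 5.02% and 1.72% to between 17.9% and 20.4%. In the mutants the differences were 27.1 and 38.5 points at *Hoxb3*, 28.6 at *Hoxb2*, 24.3 at *Hoxd3* and 13.3 at *Hoxb5*. All were called, as were 91.2% of all selected regions.

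Among the other patterning genes, a start site of *Gbx2*, a homeobox gene of the hindbrain boundary (chr1:91829001-91830000), went from 3.52% and 4.92% in wild-type embryos to 35.1% and 28.3% at E14.5 and 37.7% and 48.8% at E18.5. Start sites of *Sox6*, *Gli2* and *Pax8* were also among the regions. *Sox6*, which acts in both cartilage and red cells, had 18 regions of 85 tested in and around it. Of these 16 were called in the mutants, near the 91.2% of all selected regions. Of the signalling genes, the start site of *Wnt10b* (chr15:98604001-98605000) went from 8.93% and 7.43% to 35.5% and 35.3% at E14.5 and 50.2% and 50.9% at E18.5, and that of *Ptch1*, the Hedgehog receptor (chr13:63615001-63616000), from 60.7% and 56.4% to between 82.4% and 85.8%. The annotation stretches *Fgfr2*, a fibroblast growth factor receptor gene, over 3009 kb by a single long transcript, with 1261 of the tested regions of the signalling list. Without it the list had 38 of 1228 (3.09%), of which 35 were called. *Sox6* and *Fgfr2* were singled out after their counts were seen. At the start site of *Scx* (chr15:76287001-76288000), the levels were 9.44% and 7.03% in wild-type embryos, 58.3% and 61.9% at E14.5 and 42.7% and 35% at E18.5, and the mutants gave 11.2% and 9.40%, 62.5% and 56.9%, and 41.6% and 34.1%. *Elavl4*, a neuronal RNA-binding protein gene, was the 1 neural gene with a start site among the regions (chr4:109962001-109963000), and its wild-type embryos differed widely, at 35.3% and 58.0%. Genes of the erythroid list were also touched away from their start sites, at *Car2*, *Epor*, *Ank1*, *Epb4.1*, *Gfi1b*, *Add2* and *Tmcc2*, from a higher embryo median of 58.0%. *Spnb1*, a red cell gene not counted in that list, had a selected region at a start site (chr12:77750001-77751000).

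Of the nearest genes, *Gse1* had the most regions, 33 of 191 tested, followed by *Zfp608* with 26 of 263 and *Zfp36l1* with 25 of 210. These genes were named after their counts were seen.

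A start site lay in a selected region for 290 protein-coding genes. The widest gaps at start sites were at *Dhx32*, a helicase gene (chr7:140951001-140952000), with 11.6% and 11.5% in wild-type embryos and 66.2% to 68.8% in wild-type livers, *1700067K01Rik* (chr8:86525001-86526000), with 19.1% and 19.0% against 73.6% to 78.3%, and *Por* (chr5:136201001-136202000), the electron donor of microsomal P450 enzymes, with 8.18% and 5.86% against 61.7% to 70.1%. *Cyp26c1* (chr19:37760001-37761000) followed, with 7.004% and 3.30% against 60.04% to 66.97%. *4933428G20Rik* (chr11:97361001-97362000), which overlaps *Arhgap23*, had 8.19% and 6.67% against 58.0% to 65.3%, and *5730469M10Rik* (chr14:41817001-41818000) 23.9% and 21.8% against 72.9% to 76.7%. *Pik3cd* (chr4:149049001-149050000), a leukocyte PI3 kinase subunit, had 2.47% and 3.30% against 50.7% to 59.1%, and *Macf1* (chr4:123204001-123205000), a cytoskeletal linker, 15.8% and 15.7% against 62.0% to 63.0%. The mutant livers and embryos were also apart at all 8, by 43.2 to 62.1 points, with adjusted p no higher than 1.16e-15 with edgeR and 2.15e-05 with limma. They were apart in 95.2% of all selected regions and 4.56% of all tested regions. All 255 selected regions with a gap of at least 40 points, these 8 among them, were called in the mutants.

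The genes with such a start site covered a wide range of RNA levels. In E14.5 wild-type liver RNA, given as TMM-scaled CPM per kilobase of exon, *Cyp26c1* was at 0, 0 and 0.0399 and *4933428G20Rik* at 0.0536, 0.139 and 0.0979, while *Por* was at 16.9, 16.9 and 15.4, *Dhx32* at 7.18, 7.64 and 7.22 and *5730469M10Rik* at 31.7, 30.7 and 33.3. *Por* had 4 start sites in tested regions and *Dhx32* 3, of which 1 each was selected, and the counts do not say which start was used. The 290 genes had a median of 1.15 in wild-type livers, and the 16801 genes with any tested region at a start site 3.05, with 67.9% and 68.8% at 1 CPM or more. The highest levels among the 290 were at *Ldha* (268 ± 21.7, SD, n = 3), lactate dehydrogenase, *Spnb1* (113 ± 16.0), the red cell beta-spectrin, *Arrb1* (91.8 ± 8.91), *Capns1* (91.2 ± 1.08) and *Ppp2r4* (74.0 ± 4.0005). Each had further start sites in tested regions that were not selected, with 1 selected of 3 at *Ldha* and *Capns1*, of 2 at *Spnb1* and *Ppp2r4* and of 4 at *Arrb1*. As a check of the tissue, all 30 erythroid genes and 33 of 35 hepatoblast genes found were at 1 CPM or more in wild-type liver, but 9 of 48 neural genes. The summed level of the erythroid list ran from 35742 to 66083 in the wild types and from 44204 to 48164 in the mutants. The hepatoblast list was at 34499 to 40461 in wild types and 41605 to 48635 in mutants, the megakaryocyte list at 576 to 589 and 686 to 766, and the endothelial list at 109.7 to 119 and 121 to 133. The neutrophil and macrophage list was at 1541 to 2092 and 1208 to 1377, and the mesenchyme and neural lists overlapped between genotypes. The part of these lists in the RNA differences between genotypes was not tested.

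The effect of the genotype on the regions was examined stage by stage with the same fit and criteria. At E10.5, 332 of the 7472 regions (4.44%) were more methylated in mutant than in wild-type embryos and 1 was less, where 0.604% of all tested regions were more methylated. The median difference was 3.70 points, against 1.14 for all tested. These figures use the wild-type embryos on whose low levels the regions were selected. The starting levels also differed, with 81.4% of all tested regions at 70% or more in wild-type embryos, against 0.709% of the selected regions. All tested regions thus had less room for the gain that a call needs. Neither these shares nor those of the lists below were compared at matched embryo levels. Whether the genotype acted more on the selected regions than on others of equal level was not tested. When the list was chosen with the first wild-type embryo and the mutants were compared with the second alone, 143 of 10422 regions (1.37%) were higher, against 0.201% of all, and in the opposite arrangement 353 of 9009 (3.92%) against 0.840%. In both fits the lone wild-type embryo was assumed to vary like the pair of mutants. Leaving the first wild-type embryo out of the test on the original list lowered the share changed in either direction from 4.46% to 1.67% (0.611% and 0.207% of all tested regions), and limma called 0 (1004 higher and 15 lower at an unadjusted p under 0.05). With the mutant embryos used for choosing in place of the wild types, 51 of 5313 (0.960%) were higher and the median difference was 0.687 points, but this list was selected for low levels in the mutant embryos, which lowers the difference by construction. The 332 calls include 3 of the 6 regions of the *Tnfaip2* run, whose named region had 12.6% and 15.4% in wild-type and 29.1% and 31.1% in mutant embryos, a description since the wild types selected it.

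In the livers the wild types used here were selected for high levels, which works against higher values in mutants. At E14.5, 89 (1.19%) were higher and 5 lower in mutants, against 0.629% of all tested regions that were higher, with a median difference of 1.51 points against 1.74. With the list chosen from E10.5 and E18.5 wild types only, 173 of 11245 (1.54%) were higher and the median difference was 1.88 points. The share changed in either direction at E14.5 (1.26%) was 0.816% and 2.03% without the first or second wild-type library, where 0.424% and 1.75% of all tested regions changed. Without the first or second mutant library it was 0.294% and 0.361%, against 0.158% and 0.218%, and with limma 0.201%, against 0.133%. At E18.5, 18 (0.241%) were higher and 2 lower, against 0.187%, and with the list chosen from E10.5 and E14.5 wild types 24 of 8451 (0.284%). The first mutant E18.5 library stood apart over the genome, with 65.5% of autosomal CpG reads methylated and 61.4% to 61.7% in the other E18.5 libraries. The share changed in either direction at E18.5 was 0.268%, against 0.193% of all tested regions. It was 2.03% without the second mutant library, against 1.80%, and 0.361% without the first, against 0.201%. Without the first or second wild type it was 0.0134% and 0.0268%, against 0.0357% and 0.0289%. With limma, 0 were called in either direction at E18.5 (224 higher and 25 lower at an unadjusted p under 0.05 and at least 10 points).

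Between the mutant livers, 250 regions (3.35%) were higher at E18.5 than at E14.5, against 5.71% of all tested, and 57 (0.763%) were lower, against 0.126%. The order of the shares rested on single libraries. In either direction, 4.11% of the selected and 5.83% of all tested regions changed. Without the second mutant E18.5 library these were 12.1% and 20.4%. Without the first they were 1.39% and 0.778%, and without the first or second mutant E14.5 library 0.281% and 0.201% of the selected against 0.181% and 0.113% of all, so the selected regions then had the larger share. With limma 0 were called (507 higher and 83 lower at an unadjusted p under 0.05 and at least 10 points).

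In RNA-seq of E14.5 livers, *Rlf* itself was at 10.04, 10.3 and 9.80 in wild types and at 10.95, 11.4 and 9.62 in mutants on the same scale, so its RNA level did not distinguish the genotypes (log2 fold change 0.08 ± 0.07, SE, adjusted p = 0.646). Of the 290 genes with a region at a start site, 206 passed the filter on low counts and 8 of these (3.88%) differed between genotypes, where 1.39% of all 14183 genes did. With replicate as a block there were 19 of 206 (9.22%) against 3.24%. Leaving out single libraries gave 3 to 8 calls, or 1.43% to 3.83% of these genes, where 0.459% to 1.56% of all genes were called. The lowest count was without the first or the third mutant library (1.43% and 1.44%, against 0.459% and 0.732%). Only *Tcf7l2* and *Fam169a* passed in each of these fits.

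Lower in the mutants were *Tcf7l2*, a transcriptional effector of Wnt signalling, at 4.29, 3.60 and 4.03 in wild types and 2.11, 1.91 and 2.23 in mutants (log2 fold change -0.93 ± 0.09, adjusted p = 0.000541, edgeR), and *Fam169a*, at 2.23, 2.34 and 2.62 against 1.26, 1.26 and 1.19 (-0.96 ± 0.13). *Plod1*, a collagen lysyl hydroxylase, fell from 15.1 ± 0.514 to 11.5 ± 0.434 and *Fscn1*, an actin-bundling protein, from 28.3 ± 2.29 to 21.7 ± 0.492. Higher were *Dnmt3a*, a de novo DNA methyltransferase, at 6.09, 6.50 and 6.89 in wild types and 8.19, 8.38 and 7.84 in mutants (0.32 ± 0.06, adjusted p = 0.0319), *Akap12* (0.47 ± 0.09), *Prkca* (0.44 ± 0.09) and *Prss8* (0.51 ± 0.11). The regions at these start sites did not pass the test between genotypes at E14.5, with adjusted p from 0.242 to 0.974. At *Dnmt3a* (chr12:3885001-3886000) the region was at 14.8% in wild-type embryos, 54.3% in wild-type and 57.1% in mutant E14.5 livers (means of 2), and was 1 of 8 start-site regions tested for that gene. The selected region was 1 of 2 at *Tcf7l2*, *Fam169a*, *Plod1* and *Prkca* and 1 of 3 at *Fscn1*. It was the only 1 tested at *Akap12* and *Prss8*.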

How the data were processed

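Bisulphite libraries of 12 samples and RNA-seq libraries of 6 were used. For the former, the authors trimmed the reads, aligned them with Bismark and Bowtie2 to mm9 carrying FVB variants, lambda and the transgene, removed duplicates and merged strands, and deposited converted and unconverted read counts per CpG with a percent methylation. The percent was recomputed here from the counts. For RNA-seq, the authors aligned with Tophat and deposited htseq-count counts per gene (Ensembl 67, not counted by strand). Listed autosomal CpGs had 17.2 to 36.1 reads on average, lambda retained 0.0412% to 0.0775% unconverted cytosine, and RNA libraries held 12928313 to 14621004 counts. Replicates correlated at 0.947 to 0.974 over the selected regions. Of 12771067 covered CpGs, 97.9% read CG on NCBIM37. Values after ± are SDs between the livers of a genotype for RNA levels, and SEs of the edgeR fit for log2 fold changes. Reads are not independent molecules beyond duplicate removal. The study describes the E14.5 livers for bisulphite sequencing as littermates, and litters of the other samples are not given in the sources used here, so p-values measure the spread between these samples.

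Regions of 1 kb with at least 8 CpGs covered by 6 reads were tested with edgeR 4.0.16 (R 4.3.3) on methylated and unmethylated counts, and by limma 3.58.1 on log2((methylated + 1)/(unmethylated + 1)). RNA counts were tested with edgeR (TMM, filterByExpr) and DESeq2 1.42.0. Scripts used python 3.11.15, numpy 2.4.6, pandas 2.3.3 and pysam 0.24.0. Only the edgeR fits of mutant livers against mutant embryos and of RNA between genotypes were run on simulated data. The genotype fits for methylation, the comparison of liver stages, limma and DESeq2 were not. A region counted as island-like at a GC content of at least 55% and an observed to expected CpG ratio of at least 0.6. The members, the gene lists and the rules were chosen with earlier results of these data known. Named were the 8 regions and the 8 start-site regions with the widest wild-type gap (1 per run, none on chromosome 18), the 5 longest runs (1 of which is not reported here), the regions nearest the limit, listed genes with a selected start site, and, among genes with a selected start site, the 5 with most RNA and those that passed the RNA test. Same-numbered RNA libraries correlated in their deviations from the group means (0.155, 0.220 and 0.427), so the numbers may pair these samples. No label gives such a pairing, and libraries of different numbers were not compared. The main RNA fit used no pairing, and the fit with replicate as a block is given beside it. Alternatives were another coverage minimum, other list rules, shifted regions, thinned counts, limma, a replicate block, single libraries left out, and, for RNA, DESeq2, its size factors and no filter. The lists chosen with mutant embryos or with 1 wild-type embryo at E10.5 and the gene lists without their widest gene were added after seeing the data. The authors' tables of differentially methylated regions were not used.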

Additional observations from a re-analysis of the deposited data

How the results depend on the processing

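The number of regions was 7472, and became 4433 with at least 12 CpGs per region, 2683 with a gap of 20 points and 11245 with E18.5 livers alone. The share higher in mutant livers (91.2%) was 86.5% to 92.5% with libraries left out, a replicate block, limma, a higher coverage minimum, shifted regions or thinned counts, and rose with the gap. The share that changed between mutant liver stages (4.11%) was 0 with limma (590 at an unadjusted p under 0.05) and 0.201% to 12.1% with single libraries left out. With a replicate block it was 4.06%, against 5.84% of all tested regions. For the genotype at E10.5, 4.46% changed, with 0 by limma (1019 unadjusted), 7.19% with the block, 0.998% with the list from mutant embryos, 1.38% with the list from the first wild-type embryo and 1.67% to 4.54% with libraries left out. At E14.5, 1.26% became 0.201% with limma and 0.294% to 2.03% with libraries left out. At E18.5, 0.268% became 0 with limma (249 unadjusted), 0.174% with the block and 0.0134% to 2.03% with libraries left out. Of all tested regions, 0.611% changed at E10.5 in the main fit, which also served the list from mutant embryos, and 1.07% with the block. At E14.5 it was 0.656%, and 0.133% with limma. At E18.5 it was 0.193%, and 0.158% with the block, so the share of all tested regions moved with the setting too. The cause of these shifts was not tested. Unadjusted counts were made for the selected regions only, at a difference of at least 10 points. Same-numbered bisulphite libraries correlated at -0.0223 to 0.0465, which shows no pairing by number but cannot exclude a shared litter. In the E14.5 livers the number also stands for sex. Leaving out an E14.5 library therefore also leaves its group with 1 sex, and the block there is also one of sex. In RNA, 8 of 206 genes (3.88%, against 1.39% of all genes) were called in the main fit. Without the filter these were 20 of 275 (7.27%, against 2.42%). With the block they were 19 of 206 (9.22%, against 3.24%), and with libraries left out 3 to 8 genes. Of the alternatives run for the 8 widest regions, the 8 widest start-site regions and the 8 genes called in RNA, 217 kept their call, 22 lost it and 0 reversed. All 22 losses were at RNA genes with a single library left out, and the methylation regions kept every call. With single libraries left out, *Dnmt3a* kept its call only without the second wild-type library and *Prss8* only without the third mutant library. Embryos and E18.5 livers had the lowest depth, and thinning the E14.5 counts gave 7218 regions and 90.9% higher in mutant livers.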
